A study of Mus musculus with 20 samples.

Results

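Compared here are 9 mouse spleens taken over by transplanted T-cell acute lymphoblastic leukemia (T-ALL), all labelled as carrying leukemia in which Acly had been deleted. They are 4 knockout libraries taken 72 h after deletion was induced and 5 knockout libraries taken at the humane endpoint, 9 of the 20 libraries of the series. Members were defined by their labels, with earlier results of these data known. In all groups the transplanted cells were a conditional knockout T-ALL, injected into the vein of sub-lethally irradiated mice, which keep some blood and immune cells of their own.

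In the 72 h groups, mice were left until the leukemia was overt and then received by intraperitoneal injection either corn oil (6 control libraries) or tamoxifen at 3 mg per mouse in corn oil (4 knockout libraries). In the endpoint groups the same injection, corn oil in 5 control libraries and tamoxifen in 5 knockout libraries, was given 48 h after transplantation, and spleens were taken when the mice reached the endpoint. Tamoxifen and deletion always came together, so they cannot be told apart. The recombinase and its promoter, the exons removed, the strain, the age of the mice and how many independent leukemias were used are not stated in these sources. Spleens were pressed through a filter, red cells were lysed, and strand-specific libraries were made from polyadenylated RNA with no sort named, so each library holds leukemic and host RNA together. No label says in so many words that libraries come from separate mice, so the p-values reflect only how far libraries of a group spread, which may be technical.

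The 72 h and endpoint libraries stand in separate deposited tables, each scaled on its own. The time of collection, the time of injection and the scaling of the table are therefore confounded: every difference below is between arms, and its part that comes from the table cannot be told apart from the part that comes from the mice. To set the tables side by side, each library was rescaled to the same total over the 25120 gene symbols that both tables hold, and the values below are these rescaled normalized counts. A gene was tested where its value was at least 10 in at least 4 of the 9 knockout libraries, which left 16440 genes. The 4 knockouts at 72 h can meet this filter alone, and so can the endpoint knockouts. Genes high in only 1 arm are therefore tested because of that arm. Differences are endpoint less 72 h on the scale log2(value + 1), tested by limma across all 16440 genes and called at a Benjamini-Hochberg adjusted p under 0.05. The corn oil groups, which cross the same pair of tables without tamoxifen, give the background of arm and table. The knockout difference less the control difference was tested in the same way over all 20 libraries, and a factor shared by a whole table cancels in it.

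ATP-citrate lyase, the enzyme that Acly encodes, splits citrate exported from mitochondria into acetyl-CoA and oxaloacetate in the cytosol and nucleus. Cells use this acetyl-CoA to build fatty acids and sterols and to acetylate histones and other proteins, and Acss2 can supply the same pool from acetate. T-ALL is a cancer of T-cell precursors in which NOTCH1 and its target MYC commonly drive growth and anabolic metabolism.

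Acly RNA was lower at the endpoint than at 72 h, though both groups carry the same deletion label. The 72 h knockouts held 5334, 6149, 6367 and 5011 rescaled normalized counts of Acly, and the endpoint knockouts held 3802, 2127, 3464, 2927 and 2708. The groups did not overlap. The difference was -0.95 (log2, SE 0.148, adjusted p = 0.000991), the endpoint mean being 52.6% of the 72 h mean. An exact two-sided permutation test gave p = 0.00794, the smallest that 126 arrangements of 9 libraries allow. Beside their own corn oil controls, the 72 h knockouts stood at 71.8% of the control mean and the endpoint knockouts at 38.7%. The Acly control medians were 7865 at 72 h and 7681 at the endpoint, and the knockout difference less the control difference was -0.91 (adjusted p = 0.00027). Reads from exons that remain after deletion still count towards Acly, and host cells carry the gene intact, so the values are not a share of deleted cells.

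Across all genes, limma called 1823 genes higher at the endpoint (11.1% of those tested) and 2197 lower (13.4%). Changes of at least 2-fold were mostly falls, with 175 genes higher and 1286 lower. Every endpoint library lay above every 72 h library for 1620 genes (9.85%) and below for 1991 (12.1%). The corn oil groups differed far less between the same tables: 62 genes were called higher and 11 lower, 0.444% of those tested in either direction, with 2265 genes at an unadjusted p under 0.05. The knockout difference departed from the control difference for 1697 genes in the higher direction (10.3%) and 1882 in the lower (11.4%). The median difference over all genes tested was 0.06 in knockouts and -0.01 in controls. The direction of small changes depended on scaling: 45.3% of calls were rises with equal totals, 61.4% with the deposited scaling, 61.7% with quantile normalization and 2.77% with a scaling on Trbc1 and Trbc2, the constant genes of the T-cell receptor beta chain, a setting that moved the median of all genes to -0.31.

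**Figure D1:**
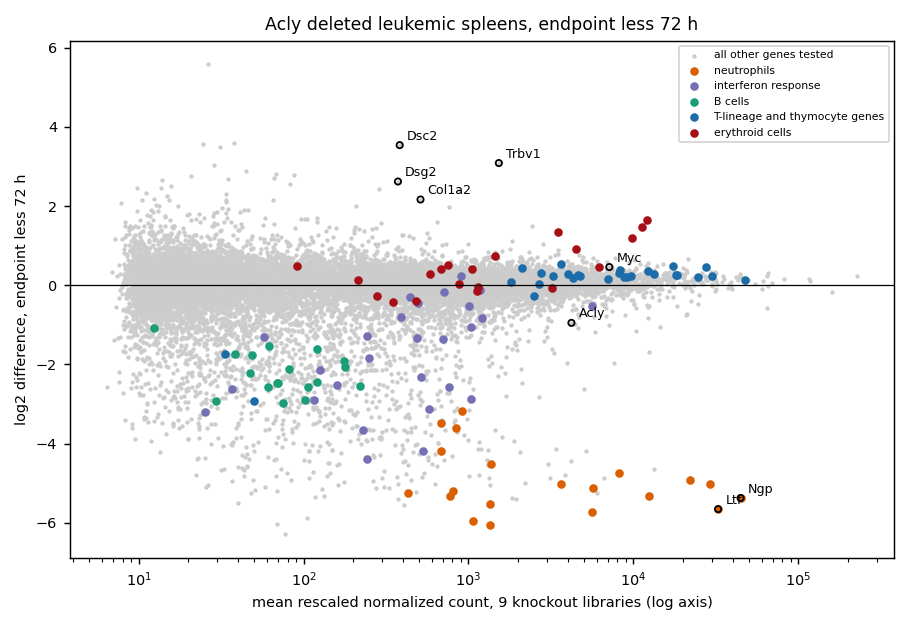
Each point is 1 of 16440 genes, with its mean rescaled normalized count over the 9 knockout libraries on a log axis and its log2 difference, endpoint less 72 h, on the vertical axis. Neutrophil genes (orange) lie between -6.06 and -3.18, B-cell genes (green) and most interferon-induced genes (purple) lie below 0, and Dsc2, Trbv1, Dsg2 and Col1a2 stand out above.

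Total deposited signal per library was similar, between 19430456 and 21621618 over the shared genes. The 72 h knockouts 2 and 3 held the most RNA of myeloid cells and the lowest summed level of T-lineage genes of all 20 libraries. Without them limma called 319 genes higher and 1085 lower. The counts of the gene lists below are therefore also given without 72 h knockouts 2 and 3 where they moved by over 1.5 times, and for most others. The part of the myeloid RNA in any other difference was not tested. Over all 16440 genes, Trbc scaling called 170 higher and 5957 lower. List counts without 72 h knockouts 2 and 3, or under Trbc scaling, stand beside these counts over all genes. With all 9 libraries and equal totals, every list count below stands beside 11.1% higher and 13.4% lower over all genes tested. In a bulk spleen, fewer cells of a type and less RNA per cell cannot be told apart.

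The largest falls were in genes of neutrophil granules. All 20 neutrophil genes were lower at the endpoint, with a median difference of -5.16 in knockouts and -0.37 in controls. Their summed level in the 72 h knockouts was 200360, 649760, 398040 and 246830, against 32406, 3109, 28832, 8550 and 3049 at the endpoint. The lowest of the 4 knockouts at 72 h thus lay above the highest of the other 16 libraries (56535). Ltf, which encodes the iron-binding granule protein lactoferrin, held 36794, 124830, 77585 and 44240 at 72 h and 4176, 354, 4124, 1236 and 405 at the endpoint (difference -5.65, SE 0.745, adjusted p = 0.00035). Endpoint knockouts 1 and 3 kept the most Ltf, at about the control medians of 3786 (72 h) and 3591 (endpoint), and endpoint knockouts 2 and 5 the least.

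The primary granule enzymes of neutrophil precursors fell as far. Prtn3 (proteinase 3) held 1787, 4499, 3032 and 2209 at 72 h and 484, 17.8, 96.5, 14.9 and 6.75 at the endpoint, a difference of -6.06 (SE 0.987, adjusted p = 0.0013). Ctsg (cathepsin G) fell by 5.96, Mpo (myeloperoxidase) by 5.73 and Elane (neutrophil elastase) by 5.53 on the log2 scale. Ngp, another granule protein, fell by 5.37. The maturation genes Ly6g (-5.26), Mmp9 (-5.02) and Mmp8 (-4.52) fell with them, so genes of both early and late neutrophil stages were among those called. For Elane the call was lost without 72 h knockouts 2 and 3 (-5.15, adjusted p = 0.0537), and 18 of the 20 genes were called lower, with a median of -4.49.

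Monocyte and macrophage genes fell in part. Of 20, 14 were lower and none higher, with a median of -0.89 in knockouts and -0.18 in controls. Ccr2, the chemokine receptor of inflammatory monocytes, had the smallest p of the list. It held 656, 1444, 966 and 852 at 72 h and 56.6, 56.7, 55.8, 34.5 and 49.1 at the endpoint (-4.21, SE 0.224, adjusted p = 5.96e-06). The endpoint values lay near the Ccr2 control medians of 42.5 and 53.1. Ly6c2, another monocyte gene, fell by 5.39, Lyz2 (lysozyme) by 4.64 and Itgam (the integrin CD11b, shared with neutrophils) by 4.14. Falls were smaller for genes of resident macrophages: C1qa, C1qb and C1qc of the complement C1q complex fell by 0.84, 0.63 and 0.71, and 5 of 10 red-pulp macrophage genes were lower, led by Siglec1 at -2.32. Without 72 h knockouts 2 and 3, 8 monocyte and macrophage genes and 1 red-pulp gene were called.

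**Figure D2:**
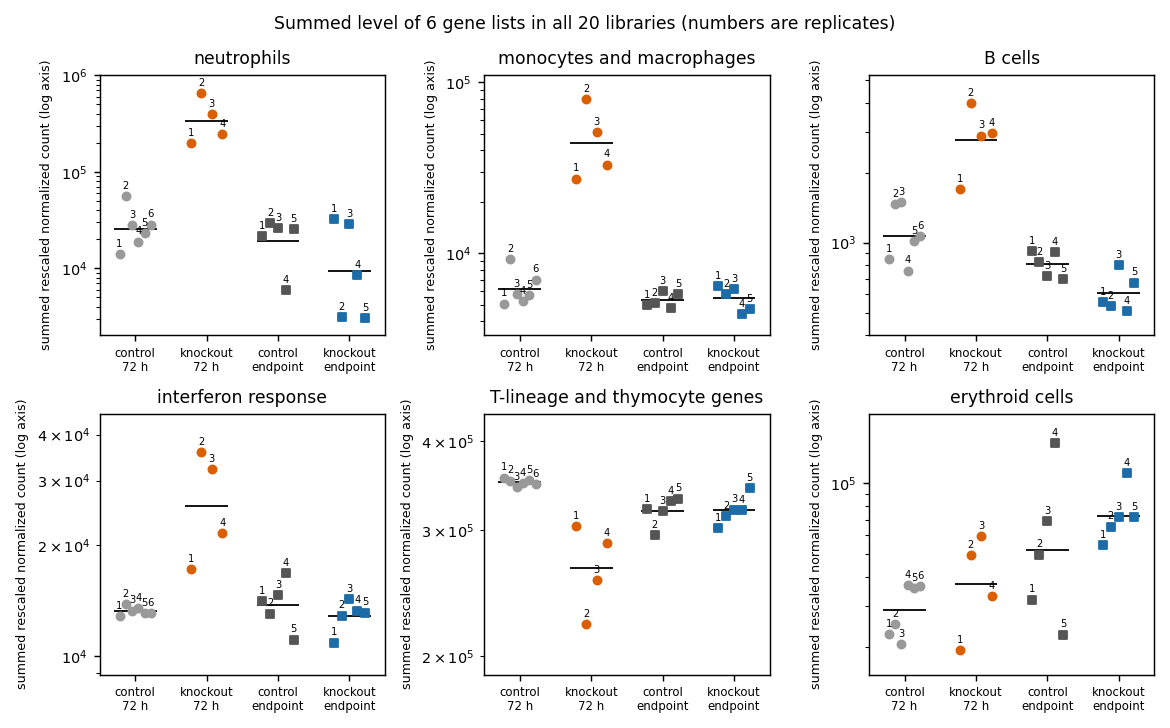
Summed rescaled normalized counts of 6 gene lists on log axes, 1 point per library numbered by replicate, with bars at geometric means of the 4 groups. Neutrophil sums of the 72 h knockouts lie between 200360 and 649760, above all other libraries, and T-lineage sums of the same libraries are lowest in replicates 2 (221840) and 3 (255510).

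Of 12 basophil and mast cell genes listed, 9 were tested and all 9 were lower, with a median of -3.97. Only 2 of them held at least 10 in all 9 knockout libraries, so the others could enter the test through the 72 h group. Those 2 were both lower, with a median of -2.52. Without 72 h knockouts 2 and 3, 6 of the 9 were called. Mcpt8, a basophil protease, held 159, 306, 267 and 125 at 72 h and 23.6, 8.89, 13.9, 2.78 and 4.79 at the endpoint (-4.40, SE 0.507, adjusted p = 0.000169). Among the largest falls named by size were also Mapk13, a p38 kinase (-5.88, with endpoint knockouts 2 and 4 listed at 0), Lbp, the lipopolysaccharide-binding protein (-5.55), and Ms4a3, a gene of granulocyte-monocyte progenitors (-5.39). F13a1, the coagulation factor XIII subunit of monocytes and platelets, fell by 5.29, and the difference beyond controls was -5.69.

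B-cell genes were lower as a group, 17 of 18 with none higher and a median of -2.33, against -0.32 in controls. The 12 with at least 10 in all 9 knockout libraries were all lower, with a median of -2.17. Cd79a, part of the B-cell receptor, held 239, 555, 442 and 388 at 72 h and 66.4, 55.2, 105, 47.7 and 69.9 at the endpoint (-2.53, SE 0.266, adjusted p = 0.000118). The endpoint knockouts lay below the Cd79a control medians of 152 (72 h) and 100.3 (endpoint), apart from knockout 3, which lay just above the second. Of 103 immunoglobulin genes tested, 85 were lower and 1 higher, with a median of -2.30, which was -0.34 in controls. Jchain, which joins secreted antibodies, fell by 2.10. When 72 h knockouts 2 and 3 were left out, 12 B-cell genes were called lower, with a median of -1.98, and 3 of 9 plasma-cell genes were called lower in place of 6. Irf4, also on the plasma-cell list, rose by 0.65 (adjusted p = 0.0022), though the rise was 0.28 (adjusted p = 0.15) under Trbc scaling.

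Genes of NK and cytotoxic cells fell in 9 of 11 tested among 14 listed, with a median of -2.08. Of the 6 with at least 10 in all 9 knockout libraries, 4 were lower and 1 higher, with a median of -1.35. Nkg7, a cytotoxic granule protein, held 232, 584, 466 and 294 at 72 h and 79.8, 32, 71, 11.6 and 35.4 at the endpoint (-3.25, SE 0.492, adjusted p = 0.000832). Gzma (granzyme A) went the other way, rising by 0.38 (adjusted p = 0.0113), from 6689, 5304, 5155 and 6720 to 8028, 8426, 7209, 7438 and 7428. The Gzma call was lost without 72 h knockouts 2 and 3 (0.20, adjusted p = 0.127) and under Trbc scaling (0.01, adjusted p = 0.96). Without 72 h knockouts 2 and 3, 3 genes of the list were called lower. Dendritic-cell genes were lower in 5 of 10, or 3 without those libraries, and 0 of 9 megakaryocyte and platelet genes were called by limma, with 1 at an unadjusted p under 0.05.

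**Figure D3:**
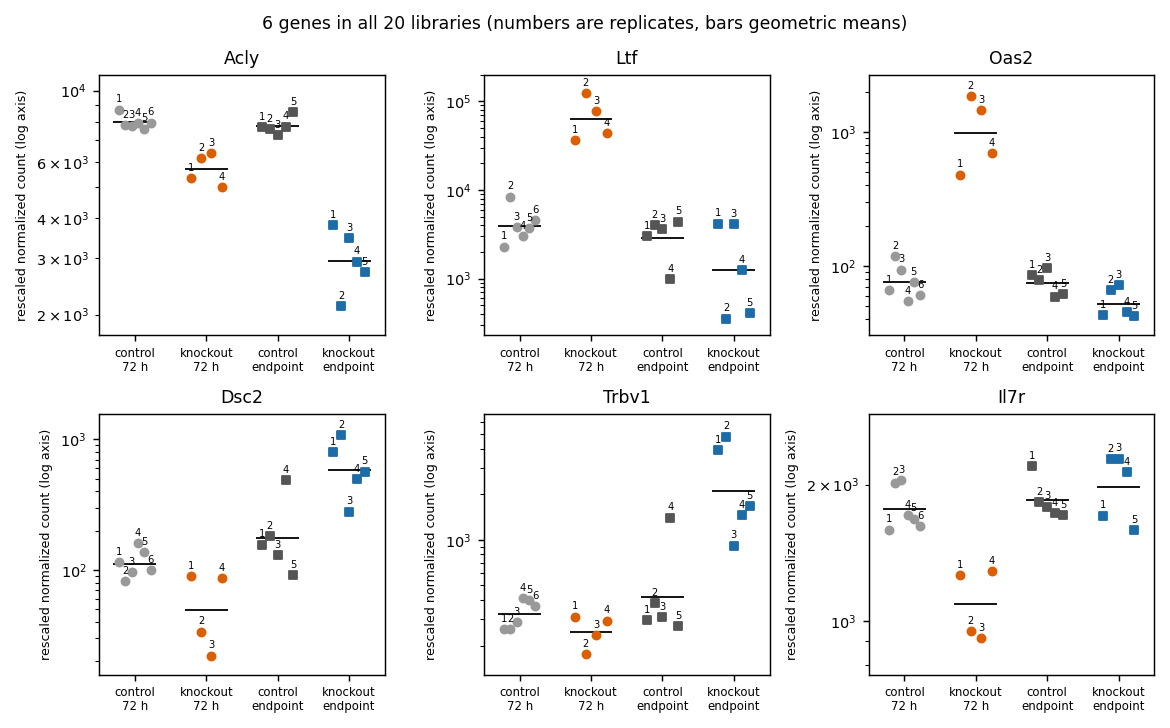
Rescaled normalized counts of 6 genes in all 20 libraries on log axes, points numbered by replicate and bars at geometric means of the 4 groups. Acly is lower in the 72 h knockouts than in controls and lowest in the endpoint knockouts, Ltf and Oas2 are highest in the 72 h knockouts, Dsc2 and Trbv1 are mostly highest in the endpoint knockouts with endpoint control 4 above endpoint knockout 3, and Il7r is lowest in the 72 h knockouts.

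Interferon-induced genes formed the next group. These genes are switched on when interferon signals through a transcription factor complex that binds the interferon-stimulated response element. Of 27 measured, 21 were lower at the endpoint and none higher, with a median of -1.35 in knockouts and -0.01 in controls. Their summed level at 72 h was 17238, 35760, 32290 and 21596 in the knockouts and 12809 to 13862 in the controls. At the endpoint it was 10866 to 14298 in the knockouts and 11079 to 16808 in the controls. The endpoint knockouts therefore lay within or near the range of both control groups, while the 72 h knockouts lay above it, highest in knockouts 2 and 3, which also held the most myeloid RNA. The part of those cells in the interferon values was not tested. Without both libraries, 16 of 27 were called lower, with a median of -0.99.

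The core letters of that response element were searched in the 250 bases before each gene start in the RefSeq promoter table (build GRCm38.p6, whereas the deposited values rest on GRCm39), as GAAANNGAA on either strand. Of the 27 interferon genes 20 had a promoter there, and 11 of these (55.0%) held a match, against 2 of 18 neutrophil genes (11.1%) and 2211 of 27025 genes overall (8.18%). Among those called lower the match stood in 7 of 14 (50%). The list was made of interferon-induced genes, so a higher share than over all genes could be foreseen. It is not a result of these data. The promoters below belong to the 3 called genes with a match and the smallest p, chosen after their values were seen. They are printed 5′ to 3′ on the strand of the gene, with matches in capitals, so that the letters can be read beside the values of the genes they precede. Oas1a lies at chr5:120907526-120907775 on the minus strand, Oas3 at chr5:120777660-120777909 on the minus strand and Ifit3 at chr19:34583279-34583528 on the plus strand.
Oas1a: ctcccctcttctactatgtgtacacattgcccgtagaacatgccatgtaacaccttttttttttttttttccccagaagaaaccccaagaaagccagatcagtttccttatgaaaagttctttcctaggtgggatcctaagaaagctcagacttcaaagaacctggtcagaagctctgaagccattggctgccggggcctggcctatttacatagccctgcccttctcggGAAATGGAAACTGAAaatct
Oas3: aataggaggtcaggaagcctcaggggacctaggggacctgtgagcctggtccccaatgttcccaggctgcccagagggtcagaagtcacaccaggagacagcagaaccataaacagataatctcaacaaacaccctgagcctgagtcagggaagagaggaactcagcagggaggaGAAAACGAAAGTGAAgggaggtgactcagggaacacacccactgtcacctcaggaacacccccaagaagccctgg
Ifit3: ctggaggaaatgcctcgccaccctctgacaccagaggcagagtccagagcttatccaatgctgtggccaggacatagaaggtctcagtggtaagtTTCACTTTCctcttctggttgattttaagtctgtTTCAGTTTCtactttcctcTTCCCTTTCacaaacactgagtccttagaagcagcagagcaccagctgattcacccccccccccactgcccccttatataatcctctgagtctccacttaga
Oas1a and Oas3 each hold a pair of overlapping matches, and Ifit3 holds 3 separate ones on the opposite strand. A match is a description of these letters and does not show that a factor binds there.

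The 2'-5' oligoadenylate synthetases, which make the messenger that activates RNase L against viral RNA, were among the largest falls of the list. Oas1a held 606, 1797, 1413 and 784 at 72 h and 89.2, 101, 184, 145 and 103 at the endpoint (-3.12, SE 0.314, adjusted p = 0.00011). Oas3 held 742, 3643, 2732 and 1059 at 72 h and 239.9, 222, 257, 212 and 204 at the endpoint (-2.88, SE 0.386, adjusted p = 0.00039). For both genes 72 h knockouts 2 and 3 were highest and the groups did not overlap. Oas2 held 481, 1850, 1454 and 697 at 72 h and 43.0, 65.8, 72.2, 45.2 and 42.1 at the endpoint (-4.19, SE 0.357, adjusted p = 8.05e-05), near the Oas2 control medians of 70.7 and 78.7.

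Ifit3, which belongs to a family that blocks translation of viral RNA, held 83.6, 411, 292 and 136 at 72 h and 19.1, 28.5, 30.1, 28.1 and 20.4 at the endpoint (-2.90). Ifi27l2a fell by 3.66, Rtp4 by 2.56 and Irf7, a transcription factor that amplifies the response, by 2.31. Stat2 and Irf9, factors of the response itself, fell by 0.53 and 1.06.

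Antigen presentation genes followed the same direction. Of 12 MHC class I genes, 8 were lower and none higher, with a median of -0.50, while the control median was 0.03. H2-D1, a classical class I heavy chain, held 10886, 18243, 18595 and 13056 at 72 h and 7185, 6465, 7086, 6030 and 6407 at the endpoint (-1.16, SE 0.143, adjusted p = 0.000239). H2-K1 fell by 1.00, the peptide transporter Tap1 by 0.62 and the class I transactivator Nlrc5 by 1.01. B2m, the light chain common to these molecules, did not pass the test (-0.14, adjusted p = 0.0744), although every endpoint library lay below every 72 h one. Of 10 MHC class II genes, 8 were lower and 1 higher. The invariant chain Cd74 fell by 1.48, and the exception H2-Oa, a modulator of peptide loading, rose by 0.55. In all, 5 class I and 3 class II genes were called lower without 72 h knockouts 2 and 3.

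**Figure D4:**
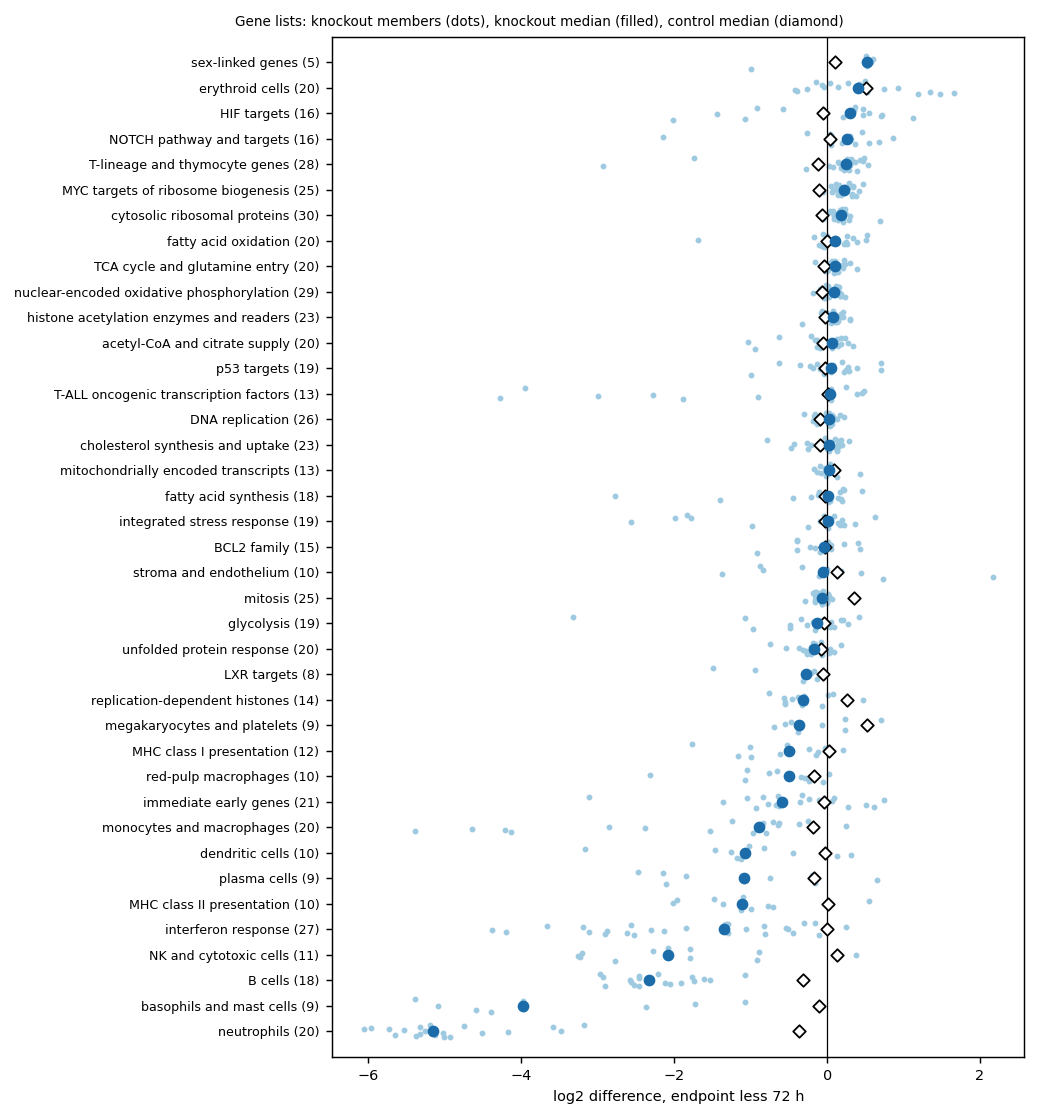
Log2 differences, endpoint less 72 h, of the tested members of 39 gene lists in knockouts (small dots), with the list median in knockouts (large filled circle) and in corn oil controls (open diamond). Neutrophil (-5.16), basophil and mast cell (-3.97), B-cell (-2.33), NK and cytotoxic (-2.08) and interferon (-1.35) medians lie far to the left in knockouts while control medians stay between -0.37 and 0.52.

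Of 20 genes that make, export or consume citrate and cytosolic acetyl-CoA, 3 were higher and 3 lower, Acly included, with a median of 0.06 (all genes tested: 11.1% higher, 13.4% lower). Beyond the control difference 6 were higher and 3 lower. The counts were 1 higher and 3 lower without 72 h knockouts 2 and 3, and 0 higher and 10 lower under Trbc scaling. Over all 16440 genes those settings gave 319 higher and 1085 lower, and 170 higher and 5957 lower. Acss2, the acetate-using source of acetyl-CoA, held 492, 436, 541 and 479 at 72 h and 400.3, 449, 598, 584 and 538 at the endpoint, overlapping, with a difference of 0.06 (SE 0.127, adjusted p = 0.745). Idh1, the cytosolic isocitrate dehydrogenase that consumes citrate downstream of aconitase, held 613, 1112, 792 and 710.4 at 72 h and 432, 364, 354, 361 and 402 at the endpoint (-1.04, SE 0.149, adjusted p = 0.000579). Idh1 was highest in the 72 h knockouts 2 and 3, and without them it still fell, by 0.79 (adjusted p = 0.00241). Crat, the carnitine acetyltransferase, fell by 0.64. Pdha1, a subunit of the pyruvate dehydrogenase that makes mitochondrial acetyl-CoA, rose by 0.34 (SE 0.0552, adjusted p = 0.00124), a rise that became -0.03 under Trbc scaling.

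Fatty acid synthesis genes were mostly uncalled, 1 of 18 higher and 3 lower, beside 11.1% and 13.4% of all genes tested. Fasn, the fatty acid synthase, held 7709, 6312, 8014 and 6540 at 72 h and 9101, 7313, 6309, 5733 and 7653 at the endpoint, a difference of 0.00 (SE 0.125, adjusted p = 0.983). Srebf1, the transcription factor of the lipogenic program, differed by -0.02 (adjusted p = 0.85). The stearoyl-CoA desaturase Scd1 fell from 179, 336, 245 and 286 to 86.6, 90.9, 93.6, 111 and 101 (-1.40, SE 0.177, adjusted p = 0.000274), while the related desaturase Scd2 did not pass (0.18, adjusted p = 0.158). Elovl7, an elongase of long-chain fatty acids, fell by 2.77 from low levels, and Gpam, which starts glycerolipid synthesis, rose by 0.45. The counts were 1 higher and 1 lower without 72 h knockouts 2 and 3.

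Sterol genes were close to level. Of 23 cholesterol synthesis and uptake genes tested, 1 was higher and 1 lower, with a median of 0.02. Beside this list and the LXR targets below, 11.1% of all genes tested were higher and 13.4% lower. Srebf2, the master regulator of this pathway, held 4876, 4715, 5074 and 4301 at 72 h and 5361, 4303, 4274, 4566 and 4868 at the endpoint (-0.02, SE 0.0763, adjusted p = 0.855). Dhcr7, the last enzyme of cholesterol synthesis, rose by 0.29 (adjusted p = 0.0108), and Fdps, the farnesyl diphosphate synthase, fell by 0.48 (adjusted p = 0.00599). Under Trbc scaling Dhcr7 stood at -0.08. Of 8 targets of the sterol sensor LXR, 2 fell, Smpdl3a by 1.49 and the lipoprotein lipase Lpl by 0.95, both below the median of -0.28 for the list. Without 72 h knockouts 2 and 3, 1 LXR target was called lower, and by limma 0 sterol genes were called.

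In fatty acid oxidation 8 of 20 genes were higher and 1 lower, with a median of 0.10 (all genes tested: 11.1% higher, 13.4% lower). Acaa2, the mitochondrial thiolase of the pathway, held 2517, 2046, 2132 and 2382 at 72 h and 2886, 3720, 3137, 3467 and 3034 at the endpoint (0.52, SE 0.0871, adjusted p = 0.00167). Hadh rose by 0.39 and Eci1, an isomerase, fell by 1.69. The Acaa2 control medians were 3408 and 3410, so the 72 h knockouts were the low group. Under Trbc scaling 0 of 20 were called higher and 9 lower. Without 72 h knockouts 2 and 3, 1 gene was called higher and 0 lower, so the Eci1 call was lost.

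Rises in mitochondrial genes were small, and over all genes tested 11.1% were higher and 13.4% lower. In the TCA cycle list, 5 of 20 genes were higher and 1 lower (median 0.10), and 9 were higher beyond the control difference. Suclg2, the GTP-forming succinyl-CoA synthetase subunit, held 1426, 1172, 1252 and 1348 at 72 h and 1629, 1646, 1772, 1798 and 1652 at the endpoint (0.39, SE 0.0686, adjusted p = 0.00213). Of 29 nuclear-encoded genes of oxidative phosphorylation, 5 rose, by 0.16 (Atp5f1a, Uqcrc2) to 0.24 (Ndufa4), and none fell. By limma 0 of 13 mitochondrially encoded transcripts were called, with 1 at an unadjusted p under 0.05. Without 72 h knockouts 2 and 3, 1 TCA cycle gene and 0 oxidative phosphorylation genes were called higher. Under Trbc scaling 0 oxidative phosphorylation genes were higher and 15 lower, so the direction of this list depended on the scaling. Of all 16440 genes 5957 were lower there.

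Glycolysis genes split. Of 19, 3 were higher and 5 lower, beside 11.1% and 13.4% of all genes tested. The lactate exporters went in opposite directions. Slc16a3, the exporter MCT4 of glycolytic cells, held 511, 1467, 963 and 591 at 72 h and 119, 68.6, 94.0, 73.4 and 56.6 at the endpoint (-3.33, SE 0.304, adjusted p = 8.86e-05). Slc16a1, the transporter MCT1, rose from 5230, 4436, 4525 and 4870 to 6309, 6621, 6051, 6298 and 6448 (0.42, SE 0.0579, adjusted p = 0.000496). Slc16a3 was highest in the 72 h knockouts 2 and 3 while Slc16a1 was lowest there, and Slc16a1 lost its call under Trbc scaling (0.04, adjusted p = 0.677). The glucose transporter Slc2a3 fell by 1.07 and hexokinase Hk2 by 0.97. Gapdh did not pass (-0.08, adjusted p = 0.376). With 72 h knockouts 2 and 3 left out, 1 glycolysis gene was higher and 3 lower.

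Targets of the hypoxia-inducible factor HIF were divided between 7 higher and 5 lower of 16 (all genes tested: 11.1% higher, 13.4% lower). Their median was 0.30. Ndrg1 had the smallest p, with 1197, 1154, 969.9 and 1122 at 72 h and 2257, 2671, 2132, 2798 and 2267 at the endpoint (1.12, SE 0.0939, adjusted p = 8.05e-05). Ndrg1 also rose in the corn oil groups, by 0.65 (adjusted p = 0.033), and the excess in knockouts of 0.47 did not pass (adjusted p = 0.089). Egln3, an oxygen-sensing prolyl hydroxylase, rose by 0.70 and by 0.76 beyond the control difference (adjusted p = 0.0003). Vegfa fell by 2.01 and the oxidoreductase Ero1a by 0.92. Ero1a was highest in the 72 h knockouts 2 and 3, at 2414 and 1807 there against 1380 and 1634 in knockouts 1 and 4. Without those libraries 3 HIF targets were higher and 2 lower, and under Trbc scaling 1 was higher and 5 lower, with the median at -0.07.

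Leukemia-associated genes came next. Of 28 T-lineage and thymocyte genes, 10 were higher at the endpoint and 1 lower (all genes tested: 11.1% higher, 13.4% lower). The list median was 0.24 against -0.12 in controls. Beyond the control difference 20 of the 28 were higher, beside 10.3% of all genes tested. Summed, they held 303640, 221840, 255510 and 287700 at 72 h and 302210, 314140, 320500, 319830 and 343280 at the endpoint. Cd3d, a chain of the CD3 complex, held 8415, 5744, 6831 and 7422 at 72 h and 9209, 9127, 9316, 9254 and 9282 at the endpoint (0.39, adjusted p = 0.00886). Without 72 h knockouts 2 and 3, 2 genes of the list were called higher and 0 lower, and under Trbc scaling 0 were higher and 4 lower. The list holds Trbc1 and Trbc2, so this scaling removes by construction a rise shared with them. The list median there was -0.13, against -0.31 over all genes. The endpoint values of Cd3d differed little among themselves, and the Cd3d control medians were 9993 and 9294. Trbc2 rose by 0.48, whereas Trbc1 (0.27, adjusted p = 0.0929) and the recombinase gene Rag1 (0.46, adjusted p = 0.0598) did not pass. Cd28, the costimulatory receptor, rose by 0.53, and Cd7, the exception, fell by 2.93 from low values (128 to 56.8 at 72 h). The Cd7 call was lost without 72 h knockouts 2 and 3. The lowest value in any of the 20 libraries was 5744 for Cd3d, 17852 for Rag1 and 13779 for Dntt, the polymerase of immature lymphocytes. These 3 genes, picked from the list, were thus present throughout. Trac, also on the list, was low, with knockout means of 43.9 at 72 h and 24.6 at the endpoint.

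In the NOTCH list 5 of 16 genes were higher and 1 lower (all genes tested: 11.1% higher, 13.4% lower). The list median was 0.25 (Hey1 of the 17 listed was too low to test). Notch1 itself held 79846, 52284, 71265 and 69524 at 72 h and 68013, 61786, 69439, 69928 and 83026 at the endpoint, overlapping (0.06, SE 0.118, adjusted p = 0.765). Its direct targets Hes1 (0.20, adjusted p = 0.143) and Dtx1 (0.06, adjusted p = 0.714) did not pass either. Il7r, the interleukin-7 receptor and a NOTCH target that supports T-ALL growth, held 1263, 948, 916 and 1288 at 72 h and 1707, 2274, 2283, 2129 and 1586 at the endpoint (0.86, SE 0.141, adjusted p = 0.00145). Heyl rose by 0.68 and Lfng, which modifies NOTCH receptors, fell by 2.14. Both Il7r and Heyl stayed called under Trbc scaling, at 0.48 and 0.31, whereas Notch1 turned to -0.32 and Dtx1 to -0.31 there, both called lower. In the NOTCH list 2 genes were called higher and 1 lower without 72 h knockouts 2 and 3.

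Myc held 7115, 4925, 5900.5 and 5762 at 72 h and 6965, 8702, 7629, 8435 and 8875 at the endpoint, a rise of 0.46 (SE 0.103, adjusted p = 0.0082) with endpoint knockout 1 below 72 h knockout 1. The rise did not pass without 72 h knockouts 2 and 3 (0.34, adjusted p = 0.0972) or under Trbc scaling (0.09, adjusted p = 0.455). Genes of ribosome biogenesis, which MYC is known to drive, were higher in 12 of 25 with none lower (median 0.23). Beyond the control difference 14 were higher. Over all genes tested 11.1% were higher, and 10.3% beyond the control difference. Npm1, a nucleolar chaperone of ribosome assembly, held 29582, 24946, 25893 and 28916 at 72 h and 35356, 35742, 32952, 34811 and 32297 at the endpoint (0.33, SE 0.0644, adjusted p = 0.00406). Summed over the list, every endpoint knockout (130130 to 148820) lay above every 72 h knockout (108050 to 120700), and the controls held 134890 to 147090 at 72 h and 124360 to 138450 at the endpoint. Nucleolin (Ncl) rose by 0.38 and Wdr12, which acts in maturation of the large ribosomal subunit, by 0.42. Under Trbc scaling 0 of the 25 were higher and 1 lower, and 3 were called higher without 72 h knockouts 2 and 3.

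Ribosomal protein genes moved in the same small range, 15 of 30 higher and none lower (all genes tested: 11.1% higher, 13.4% lower). Their median was 0.18. Rplp0, a protein of the ribosomal stalk, held 64446, 53529, 56531 and 60033 at 72 h and 72002, 69211, 67903, 69577 and 66251 at the endpoint (0.24, SE 0.063, adjusted p = 0.0187). Rpl5, a large-subunit protein, was the largest rise at 0.69 (SE 0.107, adjusted p = 0.000946). Under Trbc scaling the median of the list turned to -0.19, with 1 gene higher and 10 lower, and 1 gene was called higher without 72 h knockouts 2 and 3.

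Transcription factors that act as T-ALL oncogenes fell in 6 of 13 tested and rose in 4. Of the 18 listed, Tlx1, Tlx3, Hoxa10, Nkx2-1 and Mycn were not tested. Erg held 264, 653, 427 and 248 at 72 h and 50.7, 14.6, 34.4, 14.1 and 17.2 at the endpoint (-3.95, SE 0.412, adjusted p = 0.000118). Lmo1 fell by 4.27, Hoxa9 by 2.99, Mef2c by 2.28, Lyl1 by 1.89 and Lmo2 by 0.91. Myb rose by 0.38, Tcf12 by 0.48, Ets1 by 0.24, and Myc as above. Erg control medians were 33.2 and 31.0, so the 72 h knockouts were again the group apart. Each of the 6 factors that fell, except Mef2c, was higher in 72 h knockouts 2 and 3, which held the most myeloid RNA, than in knockouts 1 and 4, and the part of that RNA in these falls was not tested. Without these libraries 1 factor was called higher and 4 lower, and under Trbc scaling 0 higher and 7 lower.

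By limma 0 of 26 DNA replication genes were called (3 at an unadjusted p under 0.05), with values from -0.30 to 0.23, and 1 of 25 mitosis genes was lower, which was not called without 72 h knockouts 2 and 3. In controls 4 mitosis genes were called higher. Mki67, a marker of cycling cells, held 23665, 20232, 21188 and 24669 at 72 h and 25263, 19160, 22895, 19648 and 20523 at the endpoint (-0.06, SE 0.0908, adjusted p = 0.636). In controls Mki67 rose by 0.69 (adjusted p = 0.000789), from a median of 15328 to 23432, and the knockout difference less the control difference was -0.76 (adjusted p = 0.000208). The 72 h controls were the low group for Mki67. For 15 of the 25 mitosis genes the knockout difference lay below the control difference by that test. Plk1, a mitotic kinase, fell by 0.29 (adjusted p = 0.0415) with overlapping groups.

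Stress and death genes showed no common direction, and over all genes tested 11.1% were higher and 13.4% lower. Of 19 p53 targets 4 rose and 1 fell: Trp53inp1 by 0.70 and Btg2 by 0.39, against Cdkn1a, the cell-cycle inhibitor p21, at -0.99. In the integrated stress response, 3 of 19 rose and 4 fell, among them the asparagine synthetase Asns at -0.98 and the glutathione-degrading Chac1 at -2.56. The serine synthesis genes Phgdh and Psph rose by 0.21 and 0.36. The unfolded protein response had 2 of 20 lower and none higher, Xbp1 by 0.74 and Sdf2l1 by 0.54. On a list of BCL2-family and apoptosome genes 3 of 15 fell: Bcl2, the anti-apoptotic founder of the family, by 0.92, and the apoptosome components Apaf1 and Casp9 by 0.40 each. Apaf1 held 1876, 2097, 1979 and 1920.1 at 72 h and 1534, 1438, 1511, 1437 and 1555 at the endpoint (SE 0.0556, adjusted p = 0.000517). Mcl1 did not pass the test (-0.04, adjusted p = 0.76). The calls by limma without 72 h knockouts 2 and 3 were 0 for p53 targets, 1 for the BCL2-family and apoptosome list, 1 higher and 1 lower for the integrated stress response, and 1 lower for the unfolded protein response.

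Immediate early genes, which respond within minutes to signalling or handling, were lower in 8 of 21 with none higher. Klf4, which is also high in myeloid cells, held 169.9, 306, 242 and 194 at 72 h and 31.0, 33.9, 29.2, 14.1 and 21.5 at the endpoint (-3.11, SE 0.274, adjusted p = 8.05e-05). Jund and Klf6 fell by 0.67 and 0.65. Histone acetylation enzymes and readers, which use or bind the product of nuclear acetyl-CoA, were higher in 4 of 23 and lower in 1. Over all genes tested, 11.1% were higher and 13.4% lower. The acetyltransferase Ep300 fell from 2814, 3065, 3359 and 3061 to 2683, 2314, 2603, 2118 and 2540 (-0.33, SE 0.0788, adjusted p = 0.0115). The bromodomain reader Brd2 rose by 0.20 and the acetyltransferase Kat8 by 0.29, both turning negative under Trbc scaling (-0.17 and -0.08). By limma 0 of 14 replication-dependent histone genes were called, with 1 at an unadjusted p under 0.05. Without 72 h knockouts 2 and 3, 2 immediate early genes and 0 acetylation genes were called.

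**Figure D5:**
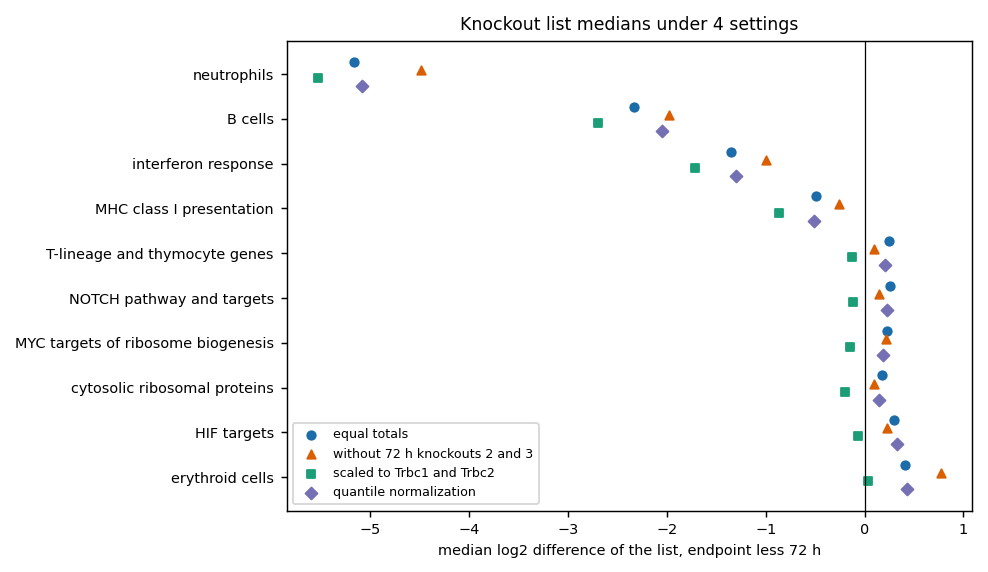
Median log2 difference, endpoint less 72 h, of 10 gene lists in knockouts with equal totals, without 72 h knockouts 2 and 3, scaled to Trbc1 and Trbc2, and after quantile normalization. Neutrophil, B-cell, interferon and MHC class I medians stay below 0 in all 4 settings. T-lineage, NOTCH, MYC target, ribosomal protein and HIF medians cross 0 under Trbc scaling. That scaling also moved the median of all genes to -0.31, and the T-lineage list holds Trbc1 and Trbc2.

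A small set of genes stood far higher at the endpoint. Dsc2 and Dsg2 encode desmosomal cadherins, adhesion proteins best known from epithelium and heart muscle. Dsc2 held 89.3, 33.7, 22.1 and 86.3 at 72 h and 798, 1076, 279, 493 and 567 at the endpoint (3.54, SE 0.459, adjusted p = 0.000311). Dsg2 held 140.4, 76.9, 61.3 and 107 at 72 h and 702, 858, 364, 466 and 587 at the endpoint (2.62, SE 0.277, adjusted p = 0.000118). For both genes endpoint knockouts 1 and 2 were highest, 72 h knockouts 2 and 3 lowest, and no library overlapped. The Dsc2 control medians were 108 and 156, and endpoint control 4 reached 489. The knockout difference exceeded the control difference by 2.90 for Dsc2 (adjusted p = 0.0017) and 2.10 for Dsg2 (adjusted p = 0.000668).

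Cpsf4l, related to a subunit of the polyadenylation complex, followed with 86.4, 58.3, 62.6 and 90.4 at 72 h and 603, 823, 214, 282 and 350.3 at the endpoint (2.44, SE 0.349, adjusted p = 0.00057). Col1a2, a chain of type I collagen, held 128, 156, 119.7 and 226 at 72 h and 830.0, 1505, 493, 292 and 856 at the endpoint (2.17, SE 0.391, adjusted p = 0.00246). The spread among endpoint knockouts was wide for both, with knockout 2 the highest. Upk1b, a tetraspanin, rose by 2.02, Xlr4c by 1.67, Pwwp3b by 1.48 and Cym by 1.67. Dsc2, Dsg2, Cpsf4l, Col1a2, Upk1b and Cym stayed called higher under Trbc scaling and without 72 h knockouts 2 and 3, whereas Xlr4c did not pass without them (1.09, adjusted p = 0.0901). Nos1, the neuronal nitric oxide synthase, rose by 1.70 (adjusted p = 0.0471) through endpoint knockouts 1 and 2 (402 and 303), with the other endpoint libraries at 58.2 to 79.6, and it lost its call in 15 of the alternatives, leaving out either of these among them.

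T-cell receptor genes differed between the libraries of the endpoint. Of 53 receptor genes tested, 18 were higher, Trbc2 among them, and none lower (all genes tested: 11.1% higher, 13.4% lower). The median was 0.50 in knockouts and -0.03 in controls. No count without 72 h knockouts 2 and 3 or under Trbc scaling is given for these genes. Some stood near the filter value of 10 at 72 h, such as Trbv5 (mean 7.71, not called) and Trbv20 (13.0, called). Trbv1, a variable segment of the beta chain, held 311, 175, 234 and 293 at 72 h and 3914, 4792, 915, 1452 and 1670.1 at the endpoint (3.09, SE 0.426, adjusted p = 0.000468). As a share of the signal over all Trbv segments, Trbv1 made up 3.97%, 3.11%, 3.67% and 3.29% in the 72 h knockouts and 39.6%, 42.0%, 8.94%, 14.98% and 16.1% in the endpoint knockouts. The same share was 15.2% in endpoint control 4 and 2.73% to 4.09% in the other 10 controls. These shares come from signal without a read depth, so no interval is given.

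Trbv26 and Trbv2 made up most of the remaining Trbv signal. Trbv26 held 61.8% to 66.2% of it in the 72 h knockouts and 41.2%, 31.9%, 59.8%, 57.2% and 51.7% in the endpoint knockouts. Their levels did not pass the test, Trbv26 differing by 0.11 (adjusted p = 0.691) and Trbv2 by 0.08 (adjusted p = 0.758). In the gamma locus Trgv7 rose by 2.57, from 20.8 ± 8.63 (SD, n = 4) to 133 ± 73.1 (SD, n = 5), and the constant genes Trgc1, Trgc2 and Trgc4 rose by 0.84, 0.72 and 0.78. Segments of one locus share sequence, so the authors' counting could have split reads between them. Trav6d-7 and Trav6n-7, neither of them called, held the same group means and were counted separately.

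Erythroid genes were higher in 6 of 20, with a median of 0.41 in knockouts and 0.50 in controls, and by limma 0 differed beyond the control difference, 0 also at an unadjusted p under 0.05. Hbb-bs, an adult beta globin, held 2175, 6546, 10663 and 4450.2 at 72 h and 11426, 13151, 14222, 27684 and 17948 at the endpoint (1.65, SE 0.392, adjusted p = 0.011). In controls Hbb-bs differed by 1.45 (adjusted p = 0.16), and the knockout difference less the control difference was 0.21 (adjusted p = 0.87). Red cells had been lysed, and how completely was not measured. Tmcc2, which also rose (1.98), differed by 1.57 in controls. Of 10 stroma and endothelium genes tested among 16 listed, Col1a2 and the pericyte receptor Pdgfrb (0.44, adjusted p = 0.0395) rose and none fell, with 1 called higher without 72 h knockouts 2 and 3.

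Sex-linked transcripts moved with the arms. Xist, expressed from the inactive X of female cells, held 1699, 3931, 3122 and 1463 at 72 h and 1199, 1361, 1631, 905 and 919 at the endpoint, a fall of 1.00 (adjusted p = 0.0244) that was -0.43 (adjusted p = 0.278) without 72 h knockouts 2 and 3. The Y-linked Eif2s3y rose by 0.51, from 1036, 851, 916 and 1145 to 1171, 1304, 1444, 1639.7 and 1484. Both kinds of transcript were present in every library. Of the 5 sex-linked genes 3 were called higher and 1 lower, and 0 by limma without 72 h knockouts 2 and 3.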

How the data were processed

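The authors deposited DESeq-normalized counts per gene symbol, a signal in arbitrary units, in 1 table for the 72 h arm and 1 for the endpoint arm. Per the submitters' processing notes, kallisto 0.46.0 and the genome build GRCm39 were used. No source used here gives the annotation, how transcripts were summed to genes, or a filter. Normalized values do not keep the read depth, and whole reads could not be recovered, so no count model was run.

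The tables were joined on shared symbols, each library was rescaled to the same total, and log2(value + 1) was fitted with limma 3.58.1 (lmFit, eBayes with a trend, Benjamini-Hochberg adjustment over all genes tested) in R 4.3.3. Fold changes on this scale understate changes of low genes. Acly was also tested by exact permutation. The script was tested on simulated data. The members and gene lists were chosen with earlier results of these data known.

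Named were 12 genes in every case (Notch1, Hes1, Dtx1, Myc, Rag1, Trbc1, Trbc2, Srebf1, Srebf2, Fasn, Acss2 and Acly), the 10 largest called rises and falls with a mean of at least 100, leaving out predicted genes and receptor segments, the member of highest mean and up to 3 called members of smallest p in each of 39 lists, and the 6 largest called rises and falls beyond the control difference. Other called members and the receptor segments were named after their values were seen. Alternatives were other pseudocounts (0.5 and 8), filters, scalings and model settings, a replicate block, and leaving out libraries. Results for some genes are not reported here.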

Additional observations from a re-analysis of the deposited data

Results flagged for a closer look

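In 5 of 310 groups examined (155 named genes in each knockout group), 1 library lay far from the others of its group by Dixon's criterion, which chance meets in about 1 in 20 groups. These were Elovl7 in endpoint knockout 3 (2.01), Hadh in endpoint knockout 4 (1840), Fcgr3 in endpoint knockout 4 (72.8), Tfrc in 72 h knockout 1 (4256.5) and H2-DMa in 72 h knockout 2 (346), all as rescaled normalized counts.

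The knockout difference between arms departed from the control difference for 3579 genes by limma. Among named genes with the largest departures (log2), Acly stood at -0.91, Dsc2 at 2.90, Col1a2 at 2.43, Dsg2 at 2.10, Cpsf4l at 1.98, Snhg17 at 1.93 and Pwwp3b at 1.57. Snhg17, a small nucleolar RNA host gene, did not pass in knockouts (0.56, adjusted p = 0.143) and fell by 1.37 in controls (adjusted p = 0.047). In the other direction stood Prtn3 at -5.85, F13a1 at -5.69, Mpo at -5.40, Ctsg at -5.39, Elane at -5.30 and Ltf at -5.18.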

How the results depend on the processing

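The count of called genes moved most with the scaling to Trbc1 and Trbc2 and with 72 h knockouts 2 and 3. Under Trbc scaling limma called 6127 genes (170 higher, 5957 lower), and without 72 h knockouts 2 and 3 it called 1404 (319 higher, 1085 lower), a setting that also leaves fewer samples. Both together, chosen after seeing the data, gave 2351 (112 higher). Rises numbered 3185 with the deposited scaling and 3262 with quantile normalization. Leaving out 1 library gave 2532 to 4519 calls (849 to 2270 higher, 1683 to 2371 lower), with 72 h knockouts 2 (2609) and 3 (2532) moving the count by over 1.5 times. The difference beyond controls was called for 7190 genes under Trbc scaling (59 higher, 7131 lower) and 1444 without 72 h knockouts 2 and 3 (416 higher, 1028 lower), with 2588 higher under quantile normalization. Leaving out 1 library gave 2542 to 4112 (996 to 2032 higher, 1546 to 2080 lower). Of the listed genes 272 were called, 123 without 72 h knockouts 2 and 3 and 192 to 300 leaving out 1 library.

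Under Trbc scaling the sign turned for Notch1 (-0.316), Dtx1 (-0.311), Pdha1 (-0.0299), Sdha (-0.324), Fh1 (-0.162), Mdh1 (-0.143), Dhcr7 (-0.0832), Ndufa4 (-0.135), Ndufa9 (-0.185), Atp5f1a (-0.215), Npm1 (-0.0448), Rplp0 (-0.135), Rpl32 (-0.0761), Rps24 (-0.15), Pcna (-0.366), Phgdh (-0.157), Psph (-0.00778), Brd2 (-0.17), Kat8 (-0.0787), Tcf7 (-0.229), Ets1 (-0.127) and the ribosomal protein median (-0.194). With 72 h knockouts 2 and 3 also left out, it turned for Fh1 (-0.0156), Mdh1 (-0.0654), Ndufa9 (-0.0338), Atp5f1a (-0.0655), Rplp0 (-0.035), Rps24 (-0.0464), Phgdh (-0.0264), Brd2 (-0.00949), Ets1 (-0.0675) and the ribosomal protein median (-0.0932). Under Trbc scaling the medians also turned for the T-lineage (-0.13), NOTCH (-0.119), MYC target (-0.146), HIF (-0.0693), fatty acid oxidation (-0.267), TCA cycle (-0.272) and oxidative phosphorylation (-0.283) lists, and for 9 further lists whose median lay between 0.00835 and 0.0718. Trbc1 and Trbc2 themselves stood 0.27 and 0.48 higher at the endpoint in knockouts, with Trbc1 not called. Scaling on them therefore lowers the log2 difference of every gene by about the same amount. The median over all genes went from 0.06 to -0.31 with it. Why Trbc1 and Trbc2 differed was not tested. Acly stayed called lower in every alternative run, from -1.32 to -0.811.

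Same-numbered libraries of the arms did not deviate together (r = -0.12, -0.012, 0.088 and -0.0044), and the labels state no pairing by number. These correlations set single libraries against each other, so they cannot exclude a pairing. With the replicate number as a block, 884 genes were higher and 1926 lower, and Acly stood at -0.918 (adjusted p = 0.00586). With the block, 3005 genes were called beyond the control difference.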
